A study of Mus musculus with 2 samples.

Results

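The genes described here are those that encode the proteins of the cytosolic ribosome. They were chosen by name from the array files: every non-control probe whose gene name begins with Rps or Rpl and a digit, or is Rplp0, Rplp1 or Rplp2, and does not begin with Rps6k. The rule found 135 probes of 41174, on 144 spots, for 81 gene names, of which 32 belong to the small subunit by name and 49 to the large subunit. All 81 could be tested, among 18068 genes in all; 41 of them have 1 probe and 40 have more, up to 4. At least 1 of the names does not belong: Rps19bp1 encodes a protein that binds Rps19 and is no part of the ribosome, which leaves 80 ribosomal protein genes and their relatives.

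The RNA came from C2C12 cells, an established line of myoblasts from adult C3H mouse leg muscle, kept in medium with 20% serum. The knockdown cells carried a short hairpin RNA against Mybbp1a, and the control cells a control hairpin; both were mixtures of stable clones. On each of 2 arrays, described as biological replicates, knockdown RNA labelled with Cy5 was hybridised against control RNA labelled with Cy3. No array had the dyes exchanged, so a dye bias and an effect of the knockdown cannot be told apart, and nothing states whether separate infections or separate cultures gave rise to the replicates; p-values measure the spread between these arrays, which may be technical. Every ratio below is knockdown over control.

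Each array held 45018 spots, 1639 of them controls. The median raw signal was 329 on array 1 and 449 on array 2 in the knockdown channel, and 159 and 184 in the control channel. Saturation occurred only in the knockdown channel, at 20 and 18 non-control spots. Mybbp1a, the targeted gene, had processed signals of 1434 and 1549 in the knockdown and 4658 and 6218 in the control, a mean log2 ratio of -1.78 ± 0.19 (SD, n = 2), or 3.42-fold lower; limma gave an adjusted p of 0.176, the lowest value that any gene reached. All 8 myoblast markers examined (among them Myod1, Myf5, Des and Cdh15) were well above background in both channels of both arrays, and 10 of 16 markers of myotubes, adipocytes, osteoblasts, endothelium and leukocytes passed the filter on dim spots (on each array, either channel had to be well above background). Pecam1, Kdr, Ptprc, Adgre1, Adipoq and Plin1 did not pass it. Bglap, an osteoblast marker, had ratios of 1.92 and 1.63, while the other osteoblast markers gave 0.03 and -0.14, and 0.20 and 0.06. Cdh5, an endothelial marker, gave 1.03 and 0.68 from a dim spot, with a mean log2 intensity of 7.57. Its processed control signals were 30 and 73, and its control channel was well above background on 1 array only. The part of these genes in the results below was not tested. Cd34, expressed in part of a myoblast culture, had a log2 ratio of -0.26 on array 1 and 2.54 on array 2.

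A ribosome is built from a small subunit, which holds the mRNA and decodes it, and a large subunit, which joins the amino acids and lets the new chain out through a tunnel. Its protein genes are among the most strongly transcribed in dividing cells, and their mRNAs begin with a run of pyrimidines, the 5′ terminal oligopyrimidine (TOP) tract, through which mTORC1 and Larp1 set how much they are translated. Mybbp1a is a nucleolar protein that takes part in the making of ribosomal RNA and also binds several transcription factors.

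What the array measures for such a gene depends on the probe, so the probes on which the later comparisons turn are given first, 5′ to 3′ as the array file lists them, with positions on mouse build mm8. The 3 bright probes of Rps24, Rps18 and Rpl22 shown whole read without a stop codon in at least 1 frame. The dim probes are shown to their first 30 of 60 bases, as is the bright probe of Rps12. Over all 60 bases, the dim probes of Rps12 and Rps18 also had 1 frame without a stop codon. Those of Rps24 and Rpl22 had 0. The array file assigns the dim probes of Rps24, Rps12 and Rps18 to records outside RefSeq's mRNAs.

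Rps24 A_51_P312936 (bright; chr14:23324565-23325890, + strand): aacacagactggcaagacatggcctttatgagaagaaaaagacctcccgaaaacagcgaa
Rps24 A_52_P537084 (dim; chr14:23329232-23329291, + strand): gtcaagagcctgaactgagttgatcaagtc
Rps12 A_51_P349435 (bright; chr10:23474626-23474685, - strand): atggcaaagaatctcaggccaaggatgtca
Rps12 A_52_P415440 (dim; chr10:23475653-23475712, - strand): tctactgtttgaggtaaagtcaggtgattt
Rps18 A_52_P193899 (bright; chr17:33562980-33563039, - strand): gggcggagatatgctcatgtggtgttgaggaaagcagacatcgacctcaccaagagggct
Rps18 A_51_P274544 (dim; chr17:33564847-33564906, - strand): ttttttaattctgcactttggcaaacaatg
Rpl22 A_51_P387878 (bright; chr4:151173849-151173908, + strand): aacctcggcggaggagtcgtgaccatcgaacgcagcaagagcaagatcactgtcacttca
Rpl22 A_52_P391718 (dim; chr4:151177703-151177762, + strand): gctgtaaacaacattaaccctgggttgatt

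The bright Rps24 probe spans 1326 bp of the genome with its 60 bases, so the sequence is interrupted in the genome, as it would be at a splice junction. The other probes above are contiguous in the genome. The files give no exon or UTR for a probe, and no annotation of build mm8 was used here.

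Most ribosomal protein genes had log2 ratios above 0, by small amounts, and more on array 1 than on array 2. After loess normalization the median of the 81 was 0.37 on array 1 and 0.18 on array 2, which is 1.30-fold and 1.14-fold, against 0.03 on each array for all genes tested. The ratio was above 0 for 75 of the 81 on array 1 and for 62 on array 2. Of all 18068 genes tested, 10031 and 10059 were above 0, arrays 1 and 2 in turn. The higher ratio of the pair was that of array 1 for 70 of the 81, against 49.9% of all genes tested. Higher on both arrays were 61 of 81 (75.3%), beside 40.6% of all genes tested; lower on both were 5 (6.17%), beside 29.4%. No member passed an adjusted p of 0.05 in limma in either direction, and neither did any gene tested (0% higher and 0% lower). At an unadjusted p under 0.05, 34 members were higher and 1 lower, where 13.4% and 7.49% of all genes were. The median SD between the 2 arrays was 0.14 for members and 0.11 for all genes. The members share a normalization, so they are not independent of each other, and in bulk RNA a change in the mix of cells and a change within each cell cannot be told apart.

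**Figure D1:**
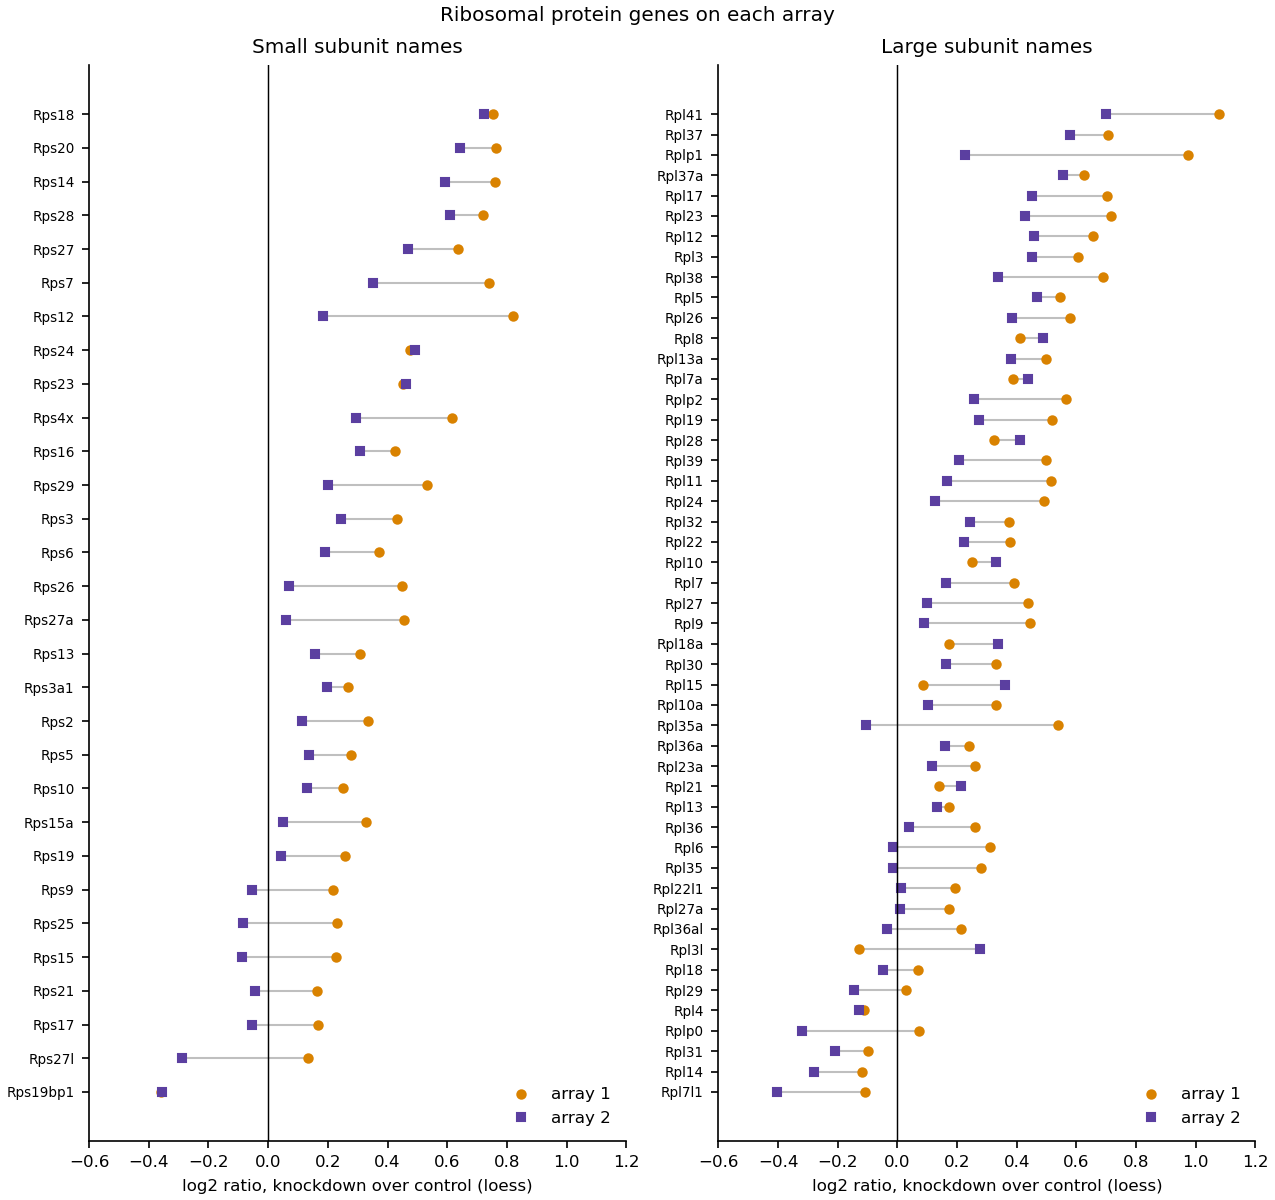
Log2 ratio (knockdown over control, after loess) of named genes on array 1 (circles) and array 2 (squares), small subunit names on the left and large on the right, ordered by the mean; a grey line joins the values of a gene. Most points lie to the right of 0, and the array 1 value is the higher for 70 of all 81 genes (49.9% of all genes tested); genes not reported by name are not drawn.

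The highest mean ratio belonged to Rpl41, which encodes the smallest protein of the ribosome, a short basic peptide. Its processed signals were 185670 and 304949 in the knockdown and 111432 and 220634 in the control, arrays 1 and 2 in turn. The log2 ratios were 1.08 and 0.70, the higher on array 1, and limma's adjusted p was 0.178. Its knockdown spot was saturated on both arrays, as were those of Rps23 and Rps28, and each ratio is therefore a lower limit on the scale it is given on. After loess the 3 were at least 1.85-fold higher for Rpl41, 1.58-fold for Rps28 and 1.37-fold for Rps23, open to dye bias. The scale moved these limits: the mean log2 ratios were 0.89, 0.66 and 0.46 after loess and 0.60, 0.38 and 0.17 from processed signals.

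Next came 4 small subunit genes and 1 of the large subunit, close together on both arrays. Rps18, a protein of the small subunit's head near the bridge to the large subunit, had processed signals of 239946 and 353532 in the knockdown and 173767 and 243845 in the control. Its log2 ratios were 0.75 and 0.72, a mean of 0.74 ± 0.02 (SD, n = 2). Its knockdown spot was saturated on array 2. Rps20, also of the head, gave 0.76 and 0.64, with knockdown signals of 188589 and 257078 and control signals of 131704 and 179964. Rps14, of the platform beside the mRNA channel, gave 0.76 and 0.59. Rps28, of the head near the mRNA exit, gave 0.72 and 0.61. Rpl37, a zinc-binding protein of the large subunit, gave 0.71 and 0.58 and was not saturated. For all 5 the adjusted p was 0.178, and in each the knockdown signal exceeded the control signal on both arrays.

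At the other end, 5 names were lower on both arrays. Rps19bp1, the name that is no ribosomal protein, had knockdown signals of 14300 and 20884 against 18899 and 28493 in the control, and log2 ratios of -0.36 and -0.35. It was the only name under 0 at an unadjusted p of 0.05 (adjusted p 0.188 in limma). Rpl7l1, a relative of Rpl7, gave -0.11 and -0.40. Rpl14 gave -0.12 and -0.28. Rpl31, which lies at the mouth of the exit tunnel, gave -0.10 and -0.21, and Rpl4, which lines the tunnel, gave -0.11 and -0.13. None of these 4 had an adjusted p below 0.309. Their spots were dimmer than those of most members, with mean log2 intensities of 12.9 for Rpl7l1, 13.0 for Rpl14, 13.9 for Rpl31 and 15.1 for Rpl4.

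The stalk, the flexible arm of the large subunit that recruits translation factors, had the widest disagreement between arrays. Rplp1 gave 0.97 on array 1 and 0.23 on array 2, the largest SD of any member at 0.53. Rplp2 gave 0.56 and 0.26. Both had a saturated knockdown spot on array 1 only. Rpl12, at the base of the stalk, gave 0.65 and 0.46. Rplp0, which anchors the stalk, gave 0.07 and -0.32 from its named probe, with processed signals of 45842 and 70679 in the knockdown and 47503 and 95653 in the control. That probe is printed on 10 spots, and on array 2 an outlier-flagged spot was left out. The ratios of its spots ran from 0.00 to 0.15 on array 1 and from -0.38 to -0.28 on array 2. The spots kept thus did not overlap between the arrays. Another 2 probes of Rplp0 are filed under the older name Arbp and fall outside the rule: A_52_P586574 gave 0.59 and 0.26, and A_51_P134602 gave 0.41 and 0.00. The probes of Rplp0 thus do not share a sign on array 2.

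Genes of other functional sites were also examined. Rpl5 and Rpl11 carry the 5S ribosomal RNA into the large subunit and, when assembly falters, bind the p53 regulator Mdm2. Rpl5 gave 0.55 and 0.47 (unadjusted p under 0.05, adjusted p 0.182), and Rpl11 gave 0.51 and 0.17 (adjusted p 0.257). Of the proteins that reach toward the peptidyl transferase centre, Rpl3 gave 0.61 and 0.45, Rpl8 gave 0.41 and 0.49 with a saturated knockdown spot on array 1, and Rpl10, among the last to join, gave 0.25 and 0.33. The Rpl10 value comes from a probe that the file places on chromosome 13 while the gene lies on X; its probe on X gave 0.35 and 0.22. Rpl15 is likewise represented by a probe placed off its gene's chromosome, with 0.09 and 0.36. Of 8 genes around the exit tunnel, 5 were higher on both arrays and 2 lower. Of 14 in the head of the small subunit, 11 were higher on both and none lower. For all genes the shares were 40.6% higher and 29.4% lower, so the count of lower genes around the tunnel was near that background. Rps6, the substrate of S6 kinase, gave 0.37 and 0.19 (adjusted p 0.239), and Rps19, known from Diamond-Blackfan anaemia, gave 0.26 and 0.04 (adjusted p 0.449).

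Relatives of core ribosomal proteins showed lower values than the set as a whole. Of the 8 such genes listed, 5 were tested, and their medians were 0.13 and -0.03, arrays 1 and 2 in turn. Rpl22l1 gave 0.19 and 0.01, Rpl36al 0.21 and -0.03, and Rps27l, a p53-responsive relative of Rps27, 0.13 and -0.29. Rpl3l, which replaces Rpl3 in mature muscle, had a mean log2 intensity of only 7.12 and ratios of -0.13 and 0.28. None of the tested relatives had an adjusted p below 0.309 in limma. All 5 lay below a mean log2 intensity of 17, which 46 of the 81 members exceeded. Dimmer members had lower ratios, as described below, and the part of brightness in the lower values of these relatives was not tested. Probes for Rps4l and Rpl39l were on the array under older names and did not pass the filter on dim spots, and no probe was matched to Rpl10l.

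Ribosomal proteins that the name rule misses were also examined. Rack1, a scaffold on the head of the small subunit, gave 0.63 and 0.54. Fau, a fusion to Rps30, gave 0.24 and 0.30. Both had an unadjusted p under 0.05, with adjusted p values of 0.178 and 0.220 in limma. Rpsa, of the small subunit, gave 0.02 and -0.30. A probe of Rpl34 under an older name gave 0.60 and 0.31, and a dimmer one gave 0.12 and -0.05.

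After loess the medians of the small and the large subunit lay close together. They were 0.37 and 0.37 on array 1, and 0.17 and 0.21 on array 2. Small minus large came to 0.00 on array 1 and to -0.04 on array 2, with -0.02 ± 0.03 (SD, n = 2) for the pair and an exact two-sided sign-flip p of 1; with 2 arrays this test cannot go below 0.5. Higher on both arrays were 24 of 32 small subunit names and 37 of 49 large. From Feature Extraction's processed signals, the difference was -0.08 on both arrays, SD 0.0019 and exact p 0.5, the smallest possible. From raw signals it was 0.07 and -0.01. On array 1 the order of the subunits thus turned with the signal used, while on array 2 the small subunit was the lower in all 3.

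Brightness sets these genes apart on the array. Of the 81, 76 lay in the brightest 10% of the genes tested, and of the 179 genes with a mean log2 intensity above 17, 46 were members. Brightness here is a property of probe and RNA together and is not compared between genes as an RNA level. Within the set, brighter spots had higher ratios: over the 81 genes, the Spearman correlation of log2 ratio with intensity was 0.67 on array 1 and 0.64 on array 2 after loess, 0.40 and 0.50 from processed signals, and 0.79 and 0.76 from raw signals. These points share their arrays, scans and normalization, and the ratio and the intensity come from the same pair of signals. The GC content of the probe went with the ratio less, at -0.26 and 0.07.

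**Figure D2:**
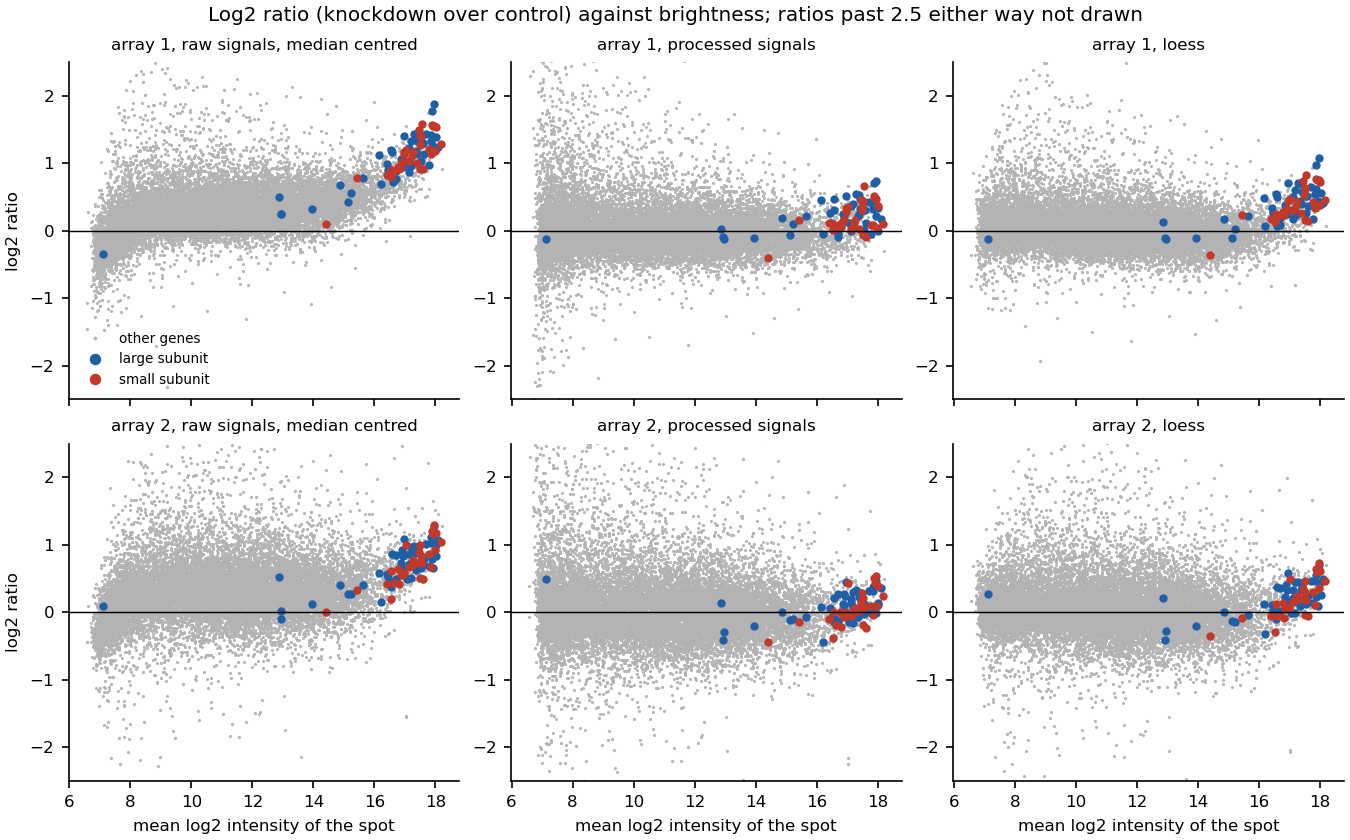
Log2 ratio against mean log2 intensity on array 1 (top) and array 2 (bottom), from raw median-centred signals, processed signals and loess, left to right; grey points are other genes, blue and red points large and small subunit names. The ratios of all genes bend upward at the bright end of the raw panels, where most ribosomal protein genes lie, and less so in the others.

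The same rise with brightness was present in genes outside the set. Among the other genes the loess medians on arrays 1 and 2 were 0.02 and 0.04 at log2 intensities of 16 to 16.5 (150 genes), 0.09 and 0.08 at 16.5 to 17 (107 genes), 0.26 and 0.18 at 17 to 17.5 (93 genes), and 0.38 and 0.30 at 17.5 to 18 (35 genes). Members in those steps had medians of 0.26 and 0.04 (5 genes), 0.28 and 0.07 (19 genes), 0.44 and 0.21 (19 genes), and 0.53 and 0.28 (22 genes). On array 1 the members thus lay above other genes of like brightness, by 0.24, 0.19, 0.19 and 0.15. On array 2 they did not: the differences were -0.0028, -0.0057, 0.03 and -0.02. Above 18 there were 5 members and 5 others, too few to read a trend from.

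That contrast between the arrays was also present on the other scales. With processed signals the members exceeded other genes of like brightness by 0.19, 0.19, 0.20 and 0.20 on array 1, and differed from them by -0.07, 0.02, 0.02 and -0.05 on array 2. With raw median-centred signals the differences were 0.24, 0.18, 0.20 and 0.14 on array 1, and 0.01, 0.02, 0.06 and -0.04 on array 2. Whether the arrays differ beyond chance was not tested, since there is 1 array of each replicate. The 11 members at or below 16 were spread over 3 steps. The 5 under 14 had medians of -0.11 and -0.21, where other genes had 0.03 and 0.03. That step is wide, with a median log2 intensity of 12.9 for the members and 9.71 for other genes. It therefore does not compare genes of like brightness.

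**Figure D3:**
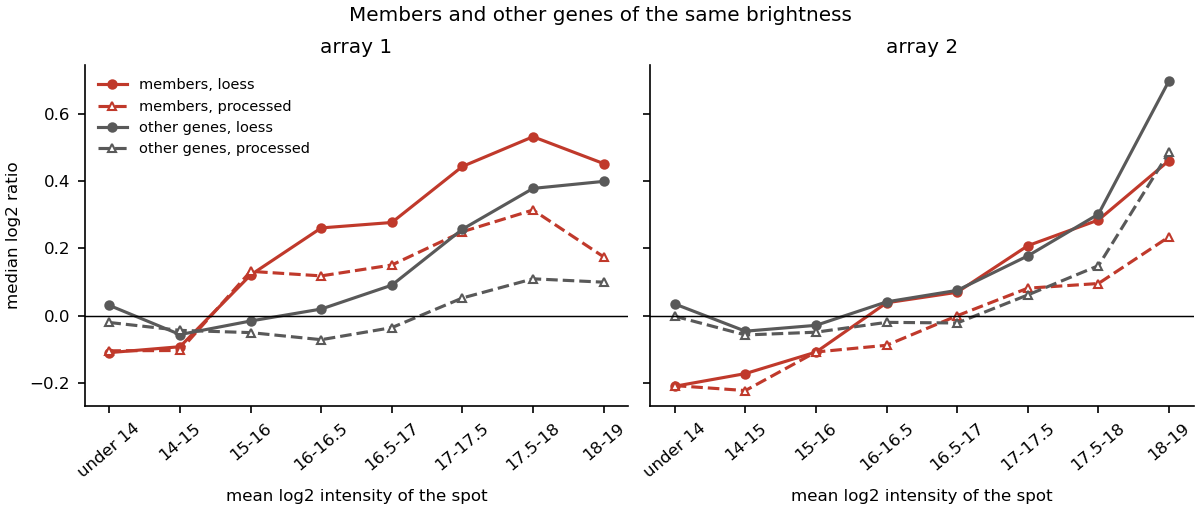
Median log2 ratio of members (red) and other genes (grey) in steps of mean log2 intensity, on array 1 (left) and array 2 (right), after loess (solid) and from processed signals (dashed). Between 16 and 18 the red lines lie above the grey ones on array 1, by 0.15 to 0.24 after loess, and close to them on array 2; the last step holds 5 members and 5 other genes.

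Probes of the same gene were compared as well. For the 39 names with more than 1 tested probe, the brightest probe had a higher ratio than the dimmest on both arrays for 25 and a lower one on both for 4. The share among all other genes with more than 1 probe was not counted, so these counts have no background. Where the probes were at least 2 log2 units apart in intensity (19 names), the count was 15 against 1, Rpl22, with a median difference of 0.45 on array 1 and 0.40 on array 2. For the 20 names whose probes were closer in intensity, the median difference was 0.07 on both arrays. Among other genes with probes that far apart, 42.1% of 3378 had the brighter probe higher on both arrays, and 58.5% of the 106 whose brightest probe exceeded 16. From processed signals the difference for the 19 was 0.31 and 0.34. Of the 19 dim probes, 12 were assigned to a record outside RefSeq's mRNAs. Among the bright probes 1 was sorted with them, but its record is a predicted RefSeq mRNA. Brightness and the transcript form that a probe detects therefore changed together, and their parts in the difference were not tested.

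The widest gaps belonged to Rps24, Rps12 and Rps18, all with a dim probe assigned outside RefSeq's mRNAs. The bright Rps24 probe gave 0.48 and 0.49, and the dim one -0.60 and -0.74. The bright Rps12 probe gave 0.82 and 0.18, and the dim one -0.01 and -0.91. The printed Rps18 probe gave 0.78 and 0.75, close to the brightest one (0.75 and 0.72), while the dim one gave -0.08 and -0.41. Rpl22, whose protein binds RNA and is dispensable for translation in most cells, ran the other way: the dim probe gave 0.58 and 1.02, and the bright one 0.38 and 0.22. Both of its probes are assigned to the same RefSeq mRNA, so that mRNA has 2 values, which were closer together on array 1 than on array 2.

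**Figure D4:**
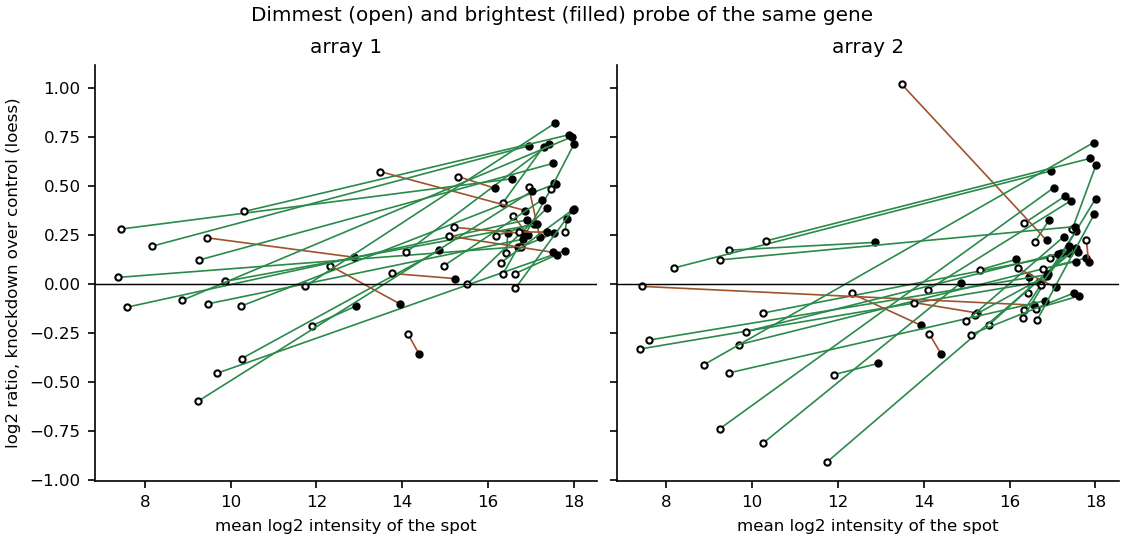
Log2 ratio after loess of the dimmest (open) and brightest (filled) probe of each of 39 genes against mean log2 intensity, array 1 left and array 2 right; green lines rise with brightness and brown lines fall. The lines rise on both arrays for 25 genes and fall on both for 4, among them Rpl22, with the highest open point on array 2. The share among other genes was counted only for probes at least 2 log2 units apart.

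The mean ratio changed sign between the dimmest and the brightest probe for 18 of the 39. Besides Rps24, Rps12 and Rps18 these included Rpl7, Rpl7a, Rpl11, Rpl13, Rpl19, Rpl22l1, Rpl27a, Rpl31, Rps3, Rps13, Rps15a, Rps21 and Rps25. In 17 of the 18 the brighter probe had the positive mean, and Rpl31 was the exception. Some of these changes rest on dim spots or on values near 0. The dim probes of Rpl22l1 and Rps15a had mean log2 intensities of 7.38 and 7.59, and the dim Rps21 probe had a mean ratio of -0.0052. How often such sign changes occur in other genes with more than 1 probe was not counted, so these counts have no background. For Rpl27a the bright probe gave 0.17 and 0.01 and the dim one -0.38 and -0.81.

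Normalization set the size of the shift. From raw signals, which carry the dye difference in full, the median of the 81 was 2.04 on array 1 and 1.82 on array 2, but the median of all genes tested was 1.17 and 1.35. Centred on the median of all spots, the raw medians were 1.12 and 0.70 for members and 0.25 and 0.23 for all genes tested, so the members lay 0.87 and 0.47 above the rest. On that scale limma called 70 of the 81 higher and none lower at an adjusted p of 0.05, where it called 22.8% of all genes higher and 0.692% lower. After loess the members lay 0.35 and 0.15 above all genes tested. From processed signals, which Feature Extraction had dye-normalized, they lay 0.19 and 0.07 above. In that scale 48 of 81 were higher on both arrays (32.5% of all genes) and 10 lower on both (36.9%); 14 were higher and 1 lower at an unadjusted p under 0.05 (9.88% and 7.6%). Leaving the members' own spots out of the loess curve gave medians of 0.41 and 0.21, and a wider span of 0.7 gave 0.49 and 0.25. Each of these scales kept the members' medians above those of all genes on both arrays.

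The deposited value table holds few of these genes. Of the 132 tested member probes, 91 have a row in it and 47 a value on both arrays (35.6%), against 89.4% of all tested probes. The blanks went with brightness. Above a log2 intensity of 16, 16.5% of member probes and 27.1% of other probes had both values; at or below 16 it was 78.0% and 90.6%. The 37 names with a value on both arrays had medians of 0.02 and -0.17. On the same 37 probes loess gave 0.11 and -0.13. The 44 names with no such value had loess medians of 0.43 and 0.22. The table thus holds mainly the dimmer probes of the set: the median log2 intensity was 14.4 for the 37 and 17.4 for the 44. Why the blanks fall there was not tested.

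Start sites were examined because TOP mRNAs are defined by their first bases. RefSeq's table of start regions (build GRCm38.p6) held 61 of the 81 names. An unbroken run of at least 8 C or T on the gene's strand, touching the 5 bases either side of the start, was present for 23 of 61 (37.7%), for 12.02% of the 11473 tested genes with an entry, and in 9.72% of all 32851 windows. Shorter runs were not counted, and the annotated start was taken as given. A gene without such a run may therefore still have a TOP tract. The first 4 below have a run of at least 8, shown in capitals. Rps12 and Rpl5 have none of that length touching those bases, and the pyrimidine stretch near the end of the Rps12 line begins past them. Each line holds 10 bases before the annotated start and the first 20 from it.

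Rps6 (chr4:86857348-86857377, - strand): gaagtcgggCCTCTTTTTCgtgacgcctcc
Rpl28 (chr7:4792955-4792984, + strand): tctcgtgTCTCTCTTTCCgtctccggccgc
Rplp2 (chr7:141447641-141447670, + strand): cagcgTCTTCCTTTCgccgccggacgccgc
Rps18 (chr17:33955646-33955675, - strand): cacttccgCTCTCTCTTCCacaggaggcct
Rps12 (chr10:23787190-23787219, - strand): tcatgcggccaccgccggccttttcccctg
Rpl5 (chr5:107900518-107900547, + strand): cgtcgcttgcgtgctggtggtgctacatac

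Members with and without a run overlapped in their ratios, and the difference was not tested. The 23 with a run had medians of 0.33 and 0.13 and the 38 without had 0.40 and 0.17. Among all tested genes with an entry the order was the other way, with medians of 0.050 and 0.066 for those with a run and 0.022 and 0.015 for those without. Among the 4 shown with a run, Rpl28 gave 0.32 and 0.41 and Rps18 0.75 and 0.72; of those without, Rps12 gave 0.82 and 0.18 and Rpl5 0.55 and 0.47.

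Other genes of the TOP class were mixed. Of 16 translation factors and related genes listed, 9 were higher on both arrays and 1 lower, beside 40.6% and 29.4% of all genes, and the list's medians were 0.20 and 0.06. None passed the adjusted threshold in limma. Tpt1, an abundant growth-related protein, gave 0.60 and 1.04. Eef1a1, which brings aminoacyl-tRNA to the ribosome, gave 0.39 and 0.28, and Eif3h, of initiation factor 3, gave 0.31 and 0.46. Eef1g, a subunit of the exchange factor of elongation factor 1, gave -0.20 and -0.51, the 1 gene of the list lower on both. Npm1, a nucleolar chaperone, was split at 0.24 and -0.52.

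Of 10 genes for the pathway that controls TOP mRNAs, 7 were lower on both arrays and 1 higher, where 29.4% and 40.6% of all genes were. None passed the adjusted threshold in limma, and 3 were lower at an unadjusted p under 0.05, as were 7.49% of all genes. Rheb, the small GTPase that activates mTORC1, gave -0.43 and -0.31 (adjusted p 0.189). Eif4ebp1, an mTORC1 substrate that holds back initiation, gave -0.54 and -0.21, and Larp1, which binds TOP tracts, gave -0.23 and -0.35; both had an unadjusted p under 0.05. Mtor itself gave -0.10 and -0.10 (adjusted p 0.525). Rheb, Eif4ebp1 and Larp1 had mean ratios above 0 when raw signals were only median-centred; on that scale the medians of all genes tested were 0.25 and 0.23.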

How the data were processed

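Spot intensity values of both dyes, and Agilent Feature Extraction 9.5.3.1's processed intensity and log10 ratio, were deposited, per the file headers and the submitters' processing notes. The deposited value table holds log2 ratios, equal within 0.001 to the ratio of the deposited processed signals for 99.4% of probes with a value on array 1 and 99.3% on array 2; its 2 columns have a median of 0, and why cells are blank is not given in the sources used here. Spot flags and probe positions are other columns, per the file headers.

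Mean signals were background-corrected (normexp, offset 50) and loess-normalized within arrays (span 0.3, control spots at weight 0) with limma 3.58.1 in R 4.3.3. Outlier-flagged spots were left out (154 and 237), saturated ones kept. Spots were averaged by probe; probes well above background in either channel on both arrays were tested, and the brightest stood for its gene. limma was fitted over 18068 genes (1 residual degree of freedom), with Benjamini-Hochberg adjustment. On simulated data with 200 genes shifted by 1 on the log2 scale, the sign was right for 198 and 0 passed the adjusted threshold. The number of arrays limits the precision.

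Genes named in the text were Mybbp1a, the 6 highest and the lowest members of 1 sign on both arrays (only 5 were lower), the members of listed functional sites, paralogs, ribosomal proteins outside the name pattern, saturated members, members whose probes disagree in sign, and TOP and signalling genes, the last 2 lists by an unadjusted p under 0.05 with Npm1, Mtor, Rpl12, Rpl15, Rpl22, Rpl34, Cd34, Bglap and Cdh5 added after their values were seen; some genes are counted in the set but not reported here by name. Members and lists were chosen with earlier results of these data known. Alternatives covered background correction, centring, loess, probe choice, filters, saturation and each array alone.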

Additional observations from a re-analysis of the deposited data

How the results depend on the processing

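The median log2 ratio of the members was 0.27 over both arrays, 0.26 for small and 0.27 for large subunit names, and small minus large was -0.02. Leaving out an array gave 0.18 to 0.37 for the members, 0.17 to 0.37 for small, 0.21 to 0.37 for large, and -0.04 to 0.00 for the difference. Processed signals gave 0.11 for the members, 0.064 for small and -0.076 for the difference. Raw median-centred signals gave 0.89, 0.89 for small, 0.89 for large and a difference of 0.035; raw uncentred signals 1.91, 1.91, 1.91 and 0.035; normexp with median centring 0.86, 0.85, 0.86 and 0.034. The deposited table, with 37 names, gave -0.072, -0.13, -0.0047 and -0.074; only 16 of the 37 are measured there by the probe used otherwise. The difference was also 0.017 with a loess span of 0.7, -0.057 with probes averaged and 0.016 without saturated spots (76 names). Leaving members' spots out of the loess, either change of the filter on dim probes, members by current symbol (83 names), paralogs left out, and Rps19bp1 left out (chosen after seeing the data) moved none of the medians by more than the spread between arrays. Over all genes, no call was made under any loess or processed setting, while raw median centring called 4124 higher and 125 lower, raw uncentred signals 17952 and 13, and normexp with median centring 3035 and 58; the centred median of tested genes was itself above 0 there.

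Mybbp1a was below 0 under each of these settings, at -0.45 with raw uncentred signals. Some genes changed sign, in part where another probe stood for the gene, and causes were not tested. With processed signals the values were Rpl13 -0.033, Rpl22l1 -0.087, Rps13 -0.016, Rps21 -0.13 and Rps25 -0.079. In the deposited table the values were Rpl11 -0.23, Rpl13 -0.44, Rpl22l1 -0.087, Rpl27a -0.69, Rpl7a -0.12, Rps12 -0.45, Rps13 -0.18, Rps15a -0.47, Rps18 -0.34, Rps24 -0.89 and Rps3 -0.090. All of these but Rpl22l1 were measured there by a dimmer probe than the one used otherwise, so they do not compare the same probe. With probes averaged, which takes in the dimmer probes of a gene, the values were Rpl13 -0.057, Rpl22l1 -0.023, Rpl27a -0.25, Rps15a -0.0057, Rps24 -0.055 and Rps25 -0.10. With raw median-centred signals the values were Eef1g 0.25, Eif4ebp1 0.099, Larp1 0.10, Mtor 0.19, Npm1 0.49, Rheb 0.14, Rpl14 0.14, Rpl31 0.23, Rpl3l -0.12, Rpl4 0.35, Rpl7l1 0.078, Rplp0 0.42, Rps19bp1 0.055, Rps27l 0.50 and Rpsa 0.37. With normexp and median centring the values were Eef1g 0.22, Eif4ebp1 0.063, Larp1 0.065, Mtor 0.16, Npm1 0.45, Rheb 0.11, Rpl14 0.10, Rpl31 0.19, Rpl3l -0.10, Rpl4 0.31, Rpl7l1 0.042, Rplp0 0.39, Rps19bp1 0.019, Rps27l 0.46 and Rpsa 0.33. With raw uncentred signals the values were Eef1g 1.27, Eif4ebp1 1.12, Larp1 1.12, Mtor 1.21, Npm1 1.51, Rheb 1.16, Rpl14 1.16, Rpl31 1.25, Rpl4 1.37, Rpl7l1 1.10, Rplp0 1.44, Rps19bp1 1.08, Rps27l 1.52 and Rpsa 1.39. With an array left out, the ranges were Npm1 -0.52 to 0.24, Rpl36al -0.035 to 0.21, Rpl3l -0.13 to 0.28, Rplp0 -0.32 to 0.074, Rps21 -0.043 to 0.16, Rps25 -0.084 to 0.23, Rps27l -0.29 to 0.13 and Rpsa -0.30 to 0.016. No paired analysis was possible because each array already holds both conditions and its ratio pairs them, so there is 1 group of ratios.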
